A study of Mus musculus with 8 samples.

Results

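Melanocytes that lack the autophagy gene Atg7 were compared with autophagy competent melanocytes after sham treatment, that is, without ultraviolet exposure. The comparison rests on 4 arrays of the 8 in the series, 2 labelled KO and 2 labelled WT, chosen by their titles, and covers 22180 genes. The strain is not given in the labels. All cells came from mouse pups 1 to 5 days old, labelled female, and had been grown for 22 days in the melanocyte medium MGM-2. RNA was taken 6 h after the sham treatment. The WT cells carried 2 floxed Atg7 alleles (Atg7 f/f). The KO cells carried the same alleles together with Tyr::Cre, a Cre recombinase driven by the tyrosinase promoter, so that recombination is directed to pigment cells and other cells of a culture keep the gene. The remaining 4 arrays measured the same genotypes after 20 J/cm2 of UVA-1, which covers the longer wavelengths of ultraviolet A. The series text describes biological duplicates, and the labels do not say whether a number stands for a pup, a litter or a culture, so the spread between arrays may be partly technical. The title of the series points to the secretory phenotype of senescent cells (SASP), in which such cells give off chemokines, interleukins and matrix-degrading enzymes.

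Autophagy encloses cell material in a double membrane and delivers it to the lysosome. ATG7 is the E1-like enzyme that activates the ubiquitin-like proteins ATG12 and LC3, without which the membrane is not built normally. The cargo receptor p62, encoded by Sqstm1, is itself degraded by autophagy, and p62 that accumulates can bind KEAP1 and release the transcription factor NRF2, which drives genes of glutathione synthesis, quinone reduction and detoxification. In pigment cells the pathway also meets the melanosome, an organelle related to the lysosome.

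Arrays were paired by the number in their titles, and a difference is KO minus WT on the log2 scale of the deposited intensities, so that 1 log2 unit is a doubling. Pair 1 is KO sham 1 minus WT sham 1, and pair 2 is KO sham 2 minus WT sham 2. The array medians lay between 110 and 115 intensity units. Arrays of the same number resembled each other more than arrays of the same genotype. Over all genes WT sham 1 and KO sham 1 correlated at r = 0.996 and WT sham 2 and KO sham 2 at 0.990, whereas WT sham 1 and WT sham 2 correlated at 0.963 and KO sham 1 and KO sham 2 at 0.977.

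**Figure D1:**
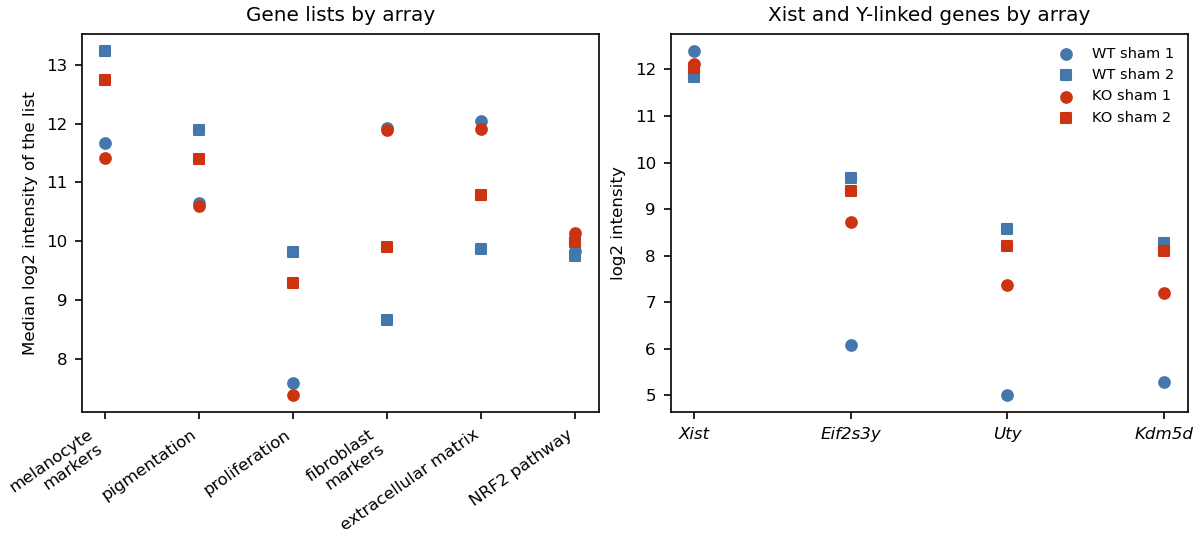
Left, median log2 intensity (vertical axis) of marker and pathway lists on each of the 4 sham arrays. Right, log2 intensity of Xist and Y-linked genes on the same arrays, with WT sham 1 lowest in the Y-linked ones. Blue is WT, red KO, circles number 1 and squares number 2. The fibroblast list stood at 11.92 on WT sham 1, 11.89 on KO sham 1, 9.91 on KO sham 2 and 8.66 on WT sham 2, and the proliferation list ran the other way.

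The cells had the markers of their label on every array. Dct, a melanin enzyme, read 13.62 on WT sham 1, 14.17 on WT sham 2, 13.61 on KO sham 1 and 14.03 on KO sham 2, and the 10 melanocyte markers had medians of 11.67, 13.24, 11.42 and 12.74 in the same order. Markers of fibroblasts were also present. Their 14 genes summed to 49662 intensity units on WT sham 1 and 9595 on WT sham 2, against 52793 on KO sham 1 and 22171 on KO sham 2. The collagen gene Col1a1 and the growth factor receptor gene Pdgfra, which define that cell type, were bright on all 4 arrays, the lowest levels being 9.9 and 8.8. The proliferation list had medians of 7.58 on WT sham 1 and 7.38 on KO sham 1, against 9.82 on WT sham 2 and 9.28 on KO sham 2. The arrays of number 1 were thus low in proliferation genes and high in fibroblast markers, and within number 2 the KO array had more of the fibroblast markers and less of the proliferation genes than its WT partner. In such bulk samples fewer cells of a type and less RNA per cell cannot be told apart.

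Y-linked genes went against the label female on 3 of the 4 arrays, whereas Xist was high on all 4. Xist, the RNA that coats the inactive X chromosome, read 12.40, 11.84, 12.13 and 12.04 on WT sham 1, WT sham 2, KO sham 1 and KO sham 2. The Y-linked gene Eif2s3y read 6.09, 9.66, 8.73 and 9.40 in that order. Uty, also on the Y chromosome, read 5.00, 8.57, 7.36 and 8.20. Both kinds of transcript were high on 3 of the 4 arrays, and WT sham 1 alone was low in the Y-linked ones. Any genotype difference within pair 1 goes with this difference in Y-linked transcripts, and the part of the latter in the results was not tested.

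The targeted gene was lower in KO on both pairs but far from absent. Atg7 read 9.95 on WT sham 1, 9.75 on WT sham 2, 9.70 on KO sham 1 and 9.22 on KO sham 2. Both KO arrays lay below both WT arrays, by 0.25 in pair 1 and 0.52 in pair 2, a mean ratio of 0.765 (log2 difference -0.39, SE 0.12, n = 2 pairs; limma adjusted p = 0.982). Each SE here and below is moderated by limma, so it draws on the variance of the other genes and is not the spread of the 2 pairs alone. After UVA the difference of Atg7 was -0.32 and -0.47. Which exons the probes of this whole-transcript probe set cover was not stated, so signal from a transcript without the deleted part cannot be told apart from intact transcript. Sqstm1 read 13.00 and 13.17 on the WT arrays and 13.19 and 13.30 on the KO arrays. It was higher by 0.19 and 0.13, again without overlap of the genotypes. Among all genes both KO arrays lay above both WT arrays in 8.91% and below both in 9.25%. Nfe2l2, which encodes NRF2, differed by -0.09 and -0.18, and its inhibitor gene Keap1 by 0.08 and -0.15.

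Across all genes the differences of both pairs had little in common, apart from a small set of large ones. The 22180 differences of pair 1 and pair 2 correlated across genes with a Pearson r of 0.069 and a Spearman rho of 0.0086 (genes are not independent replicates). Of all genes 5092 (23%) were higher in KO in both pairs, 4941 (22.3%) were lower in both, 10449 had opposite signs and 1698 had no difference in at least 1 pair. Pair 2 was more spread than pair 1, with an SD over genes of 0.309 against 0.191. In pair 1 490 genes and in pair 2 1862 genes differed by at least 0.5. In both pairs 68 genes (0.307% of those tested) were higher by at least 0.5 and 16 (0.0721%) were lower by at least 0.5, and 26 passed that size in opposite directions. At 1 log2 unit or more, 11 genes were higher in both pairs, 0 were lower in both and 0 were opposite.

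Read from pair 1 to pair 2, the genes that stood highest in KO carried over in part and the lowest did not. Read from pair 2 to pair 1, both ends carried over only weakly. Among genes with a mean log2 level of at least 6, the 100 highest in pair 1 had a median difference of 0.79 there and 0.42 in pair 2, where 70 were higher and 28 lower, against 46.9% and 51.9% of all such genes. The 100 lowest in pair 1, with a median of -0.55, had a median of 0.0035 in pair 2, with 50 higher and 49 lower. In the other direction, the 100 highest in pair 2 (median 1.54) had a median of only 0.097 in pair 1, and 67 were higher there against 53.7% of all such genes. The 100 lowest in pair 2 (median -0.93) had a median of -0.05 in pair 1, where 56 were lower against 44.4% of all such genes.

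**Figure D2:**
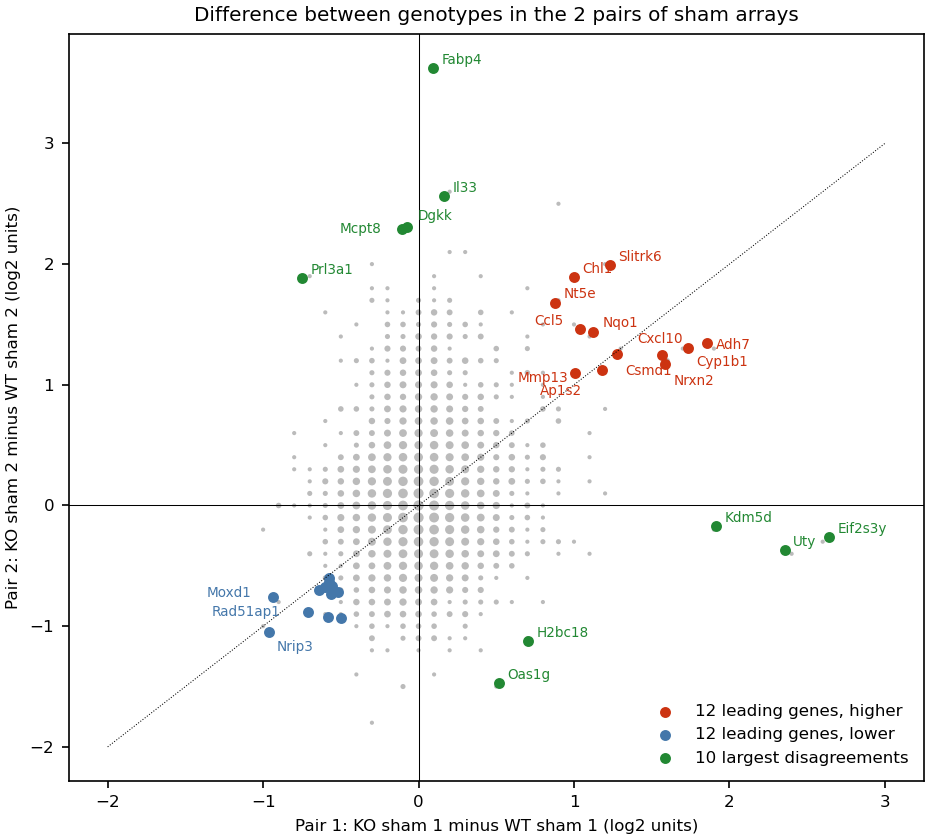
Difference between genotypes in pair 1 (horizontal axis) and pair 2 (vertical axis), both in log2 units. Grey dots are genes with a mean log2 level of at least 6, counted in squares of 0.1 with a dot area that grows with the log2 of the number. Red and blue points are the leading genes, green points the largest disagreements, and the dotted line marks equal differences. Adh7 lies at 1.86 and 1.35 and Fabp4 at 0.09 and 3.63.

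With limma on the 4 sham arrays and the pair as a block, 0 of 22180 genes passed an adjusted p of 0.05, and 806 (3.63%) had an unadjusted p under 0.05, of which 463 were higher and 343 lower in KO. The smallest adjusted p was 0.982. This fit has 1 residual degree of freedom. Restricted to the 16417 genes with a mean log2 level of at least 6, the same limma fit passed 5 genes (0.0305%) out of 954 with an unadjusted p under 0.05. The 5 were Adh7, Cyp1b1, Cxcl10, Nqo1 and Ap1s2, all higher in KO and all at an adjusted p of 0.0302. The other fits, with 0 genes past the threshold, are given with the dependence on processing.

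The 5 genes that rose in that limma fit act in retinoid and xenobiotic metabolism, chemokine signalling and vesicle sorting. Adh7 encodes a class IV alcohol dehydrogenase that oxidises retinol. It read 9.12 on WT sham 1 and 11.19 on WT sham 2, against 10.97 on KO sham 1 and 12.53 on KO sham 2. Each KO array was above its own partner, while KO sham 1 stayed below WT sham 2. The mean difference of 1.60 (SE 0.14, n = 2 pairs) is a 3.04-fold higher level in KO.

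Cyp1b1, a cytochrome P450 that oxidises steroids, retinoids and polycyclic aromatic compounds, stood in the same order. It read 7.58 and 9.60 in WT and 9.31 and 10.90 in KO. The difference was 1.73 in pair 1 and 1.31 in pair 2, a mean of 1.52 (SE 0.15, n = 2 pairs) or 2.87-fold. Here too the genotypes overlapped because number 2 was brighter than number 1 in both.

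Nqo1, the quinone reductase that is a widely used NRF2 target, read 9.31 and 9.94 in WT and 10.43 and 11.38 in KO. The genotypes did not overlap. Its differences of 1.12 and 1.44 gave a mean of 1.28 (SE 0.13, n = 2 pairs), a 2.43-fold higher level. Ap1s2 encodes a small subunit of the AP-1 clathrin adaptor, which sorts cargo between the Golgi, endosomes and melanosomes. It read 10.03 and 10.52 in WT and 11.21 and 11.64 in KO, again without overlap. The pairs gave 1.18 and 1.12, a mean of 1.15 (SE 0.10, n = 2 pairs) and a 2.22-fold higher level.

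Cxcl10, an interferon-inducible chemokine that attracts T cells, varied most of the 5 between numbers. It read 7.71 and 10.46 in WT and 9.28 and 11.70 in KO. The spread between the WT arrays was thus wider than the genotype difference of 1.57 in pair 1 and 1.24 in pair 2. The mean difference was 1.41 (SE 0.13, n = 2 pairs), a 2.65-fold higher level. In a limma fit over all 8 arrays with the number as a block its adjusted p was 0.845, against 0.0796 for Ap1s2 and 0.118 for each of Adh7, Cyp1b1 and Nqo1.

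**Figure D3:**
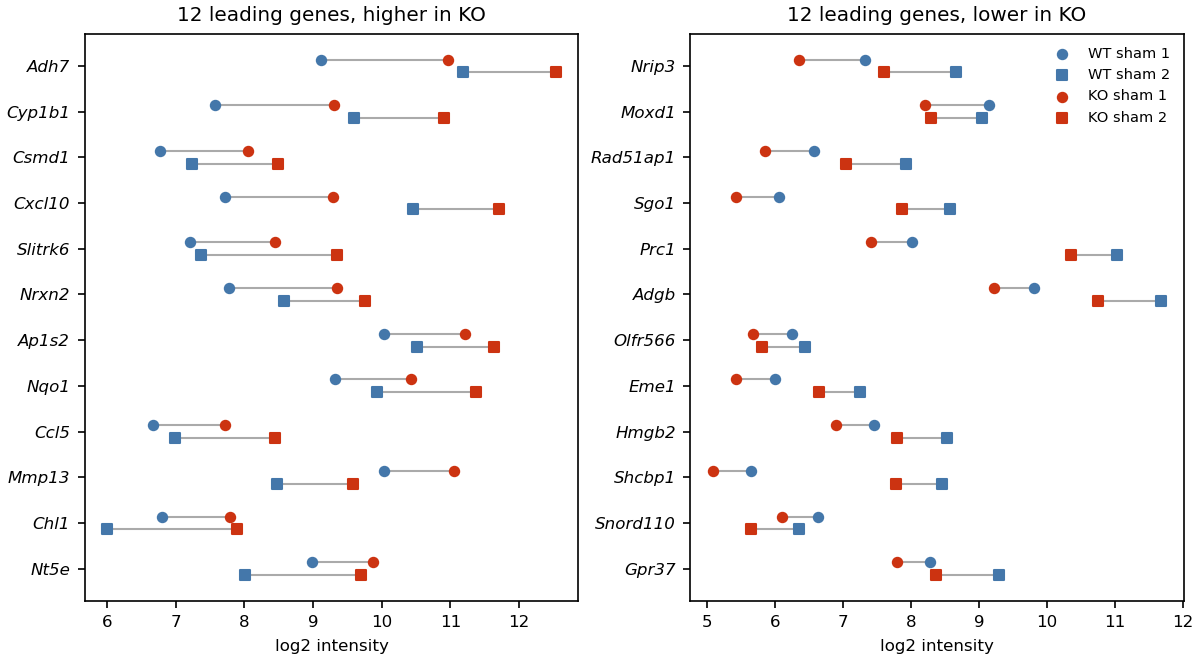
Log2 level (horizontal axis) of the 12 leading higher and 12 leading lower genes on the 4 sham arrays, 1 point per array (blue WT, red KO, circles number 1, squares number 2), with a line joining each pair. Ap1s2, Nqo1, Csmd1 and Slitrk6 are separated by genotype, whereas in Adh7, Cyp1b1 and Cxcl10 KO sham 1 lies below WT sham 2.

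A further 7 genes completed the 12 that were highest in KO when ranked by the smaller of their 2 pair differences. They did not pass the limma threshold in either fit and are given as values. Slitrk6, a transmembrane protein that guides neurite growth, read 7.21 and 7.37 in WT and 8.44 and 9.36 in KO, differences of 1.23 and 1.99 (mean 1.61, SE 0.23). Csmd1, a membrane protein with complement control repeats, read 6.77 and 7.24 in WT and 8.04 and 8.49 in KO, differences of 1.28 and 1.25 (mean 1.26, SE 0.12). Nrxn2, a neurexin of synaptic adhesion, read 7.77 and 8.58 in WT and 9.36 and 9.75 in KO. Its differences were 1.59 and 1.17, but its second and dimmer probe set gave -0.36 and 0.22. In all 3 genes both KO arrays were above both WT arrays.

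The other 4 were a chemokine, a protease, an adhesion molecule and an ectoenzyme. Ccl5, which attracts T cells and monocytes, read 6.67 and 6.99 in WT and 7.71 and 8.45 in KO. Mmp13, a collagenase, read 10.04 and 8.48 in WT and 11.05 and 9.58 in KO, with overlap between the genotypes but differences of 1.01 and 1.10. Chl1, a cell adhesion molecule of the L1 family, read 6.79 and 6.00 in WT and 7.79 and 7.89 in KO. Nt5e, the cell surface enzyme CD73 that makes adenosine from AMP, read 8.99 and 8.01 in WT and 9.87 and 9.69 in KO. It was the last inside the 12, with a smaller difference of 0.88, and Hsd3b6 was the first outside, with 0.86. Of these 12 genes, which were ranked by that difference, 8 had no overlap between genotypes, beside 8.91% of all genes, and 6 had the larger difference in pair 2.

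The 12 genes that were lowest in KO had a median difference of -0.66, against 1.33 for the 12 highest, and 3 of them were in any of the gene lists. None of them passed the limma threshold in either fit. Nrip3, a nuclear receptor interacting protein, read 7.32 and 8.65 in WT and 6.36 and 7.61 in KO, differences of -0.96 and -1.05 (mean -1.01, SE 0.12). Moxd1, a copper monooxygenase related to dopamine beta-hydroxylase, read 9.14 and 9.05 in WT and 8.21 and 8.29 in KO. It was separated by genotype, and its levels on the 2 arrays of a genotype lay close together (SD 0.069 in WT and 0.057 in KO). Its differences were -0.94 and -0.76.

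Among the other 10, Rad51ap1 read 6.57 and 7.92 in WT and 5.86 and 7.04 in KO. Prc1, which bundles microtubules at the spindle midzone, read 8.01 and 11.03 in WT and 7.41 and 10.35 in KO. Sgo1, which protects the cohesion of centromeres, differed by -0.64 and -0.70, Eme1, part of a DNA structure-specific endonuclease, by -0.57 and -0.60, and Shcbp1 by -0.56 and -0.67. In each of these the number 2 array was more than 1 log2 unit above the number 1 array in both genotypes. Hmgb2, a chromatin protein of dividing cells, differed by -0.56 and -0.73. The androglobin gene Adgb differed by -0.58 and -0.93, and Gpr37, an orphan receptor, by -0.50 and -0.93. The olfactory receptor gene Olfr566 and the small nucleolar RNA Snord110 completed the 12, both at mean levels near the lower limit of 6. Gpr37 was the last inside and Fam81a, at a smaller difference of -0.49, the first outside. Of these 12 genes, ranked in the same way, 3 had no overlap between genotypes, beside 9.25% of all genes, and 11 had the larger difference in pair 2.

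Most NRF2 pathway genes were slightly higher in KO in both pairs. Of 50 listed genes 40 were measured, 27 were higher in both pairs and 2 were lower in both, against 23% and 22.3% of all genes. The list median was 0.11 in pair 1 and 0.23 in pair 2, beside 0.00 in both over all genes. No member passed the limma threshold over all genes, and 8 had an unadjusted p under 0.05, beside 3.63% of all genes. All 5 genes of glutathione synthesis and cystine import were higher in both pairs, with medians of 0.32 and 0.24. So were 4 of 5 genes of quinone and aldehyde reduction, 3 of 4 of the pentose phosphate pathway, 3 of 4 of heme and iron handling and 5 of 9 glutathione transferases and exporters. Of the 6 regulators of the pathway 1 was higher and 1 lower in both.

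Gclm, the modifier subunit of the enzyme that limits glutathione synthesis, read 11.89 and 12.33 in WT and 12.21 and 12.65 in KO, the same difference of 0.32 in both pairs. Slc7a11, the cystine importer, read 10.18 and 9.51 in WT and 10.61 and 10.09 in KO. Gsta4, a glutathione transferase for lipid aldehydes, read 9.15 and 9.32 in WT and 9.58 and 9.94 in KO. Taldo1, transaldolase of the pentose phosphate pathway, was higher by 0.32 and 0.40. Gsta4 and Taldo1 were separated by genotype, and the level of Gclm on KO sham 1 lay below that on WT sham 2. The list medians of 0.11 and 0.23 compare with 1.12 and 1.44 for Nqo1 itself.

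**Figure D4:**
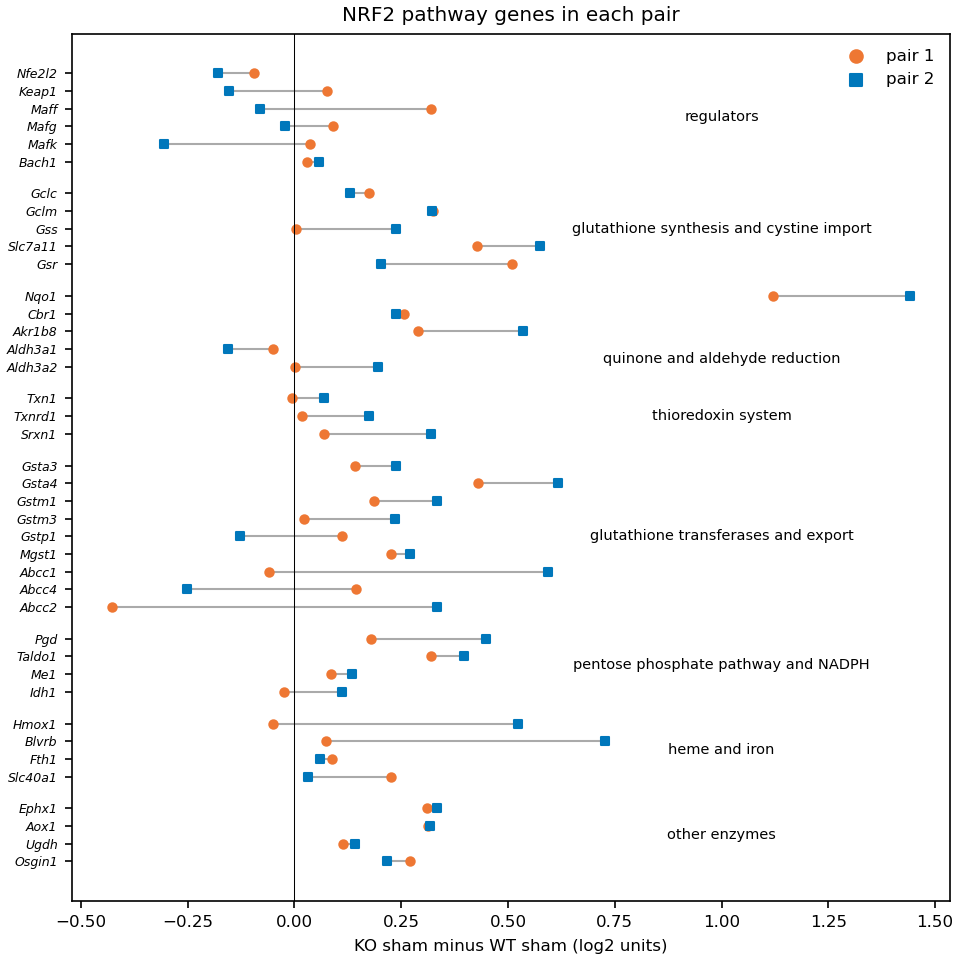
Difference between genotypes for the measured NRF2 pathway genes in pair 1 and pair 2 (horizontal axis, log2 units), ordered by role. Nqo1 stands apart at 1.12 and 1.44, and most other members lie right of 0 in both pairs.

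NRF2 acts on promoters through the antioxidant response element, and its core was looked for in the promoters of the list because most of them were higher in both pairs. The core searched was TGACNNNGC on both strands, from 250 bases before to 50 after each gene start (RefSeq, build GRCm38.p6). It occurred in 14 of 33 NRF2 pathway genes with a promoter in the table (42.4%), against 14% of 27025 genes, 2 of 24 mitosis genes (8.33%) and 3 of 18 replication genes (16.7%). Of the 14 genes with the core 8 were higher in both pairs, and of the 19 without it, Nqo1 among them, 15 were, beside 23% of all genes. A match is a description of the letters and no proof of a site. The list was drawn up from general knowledge of the pathway. A raised share of the core can follow from that choice and does not bear on the genotypes. Windows around the core of 4 members are shown 5' to 3' on the gene's strand with the core in capitals. In Gclm and Mgst1 the core is on the opposite strand, and in Gsta3 on the gene's own strand. In Ugdh the core shown is on the gene's own strand. A further core of Ugdh, not shown, is on the opposite strand 85 bases before the gene start.
Gclm, chr3:122245397-122245457, strand +: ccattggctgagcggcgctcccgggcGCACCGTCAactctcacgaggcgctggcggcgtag
Mgst1, chr6:138140445-138140505, strand +: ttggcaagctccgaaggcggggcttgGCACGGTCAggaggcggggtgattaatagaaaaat
Gsta3, chr1:21240438-21240498, strand +: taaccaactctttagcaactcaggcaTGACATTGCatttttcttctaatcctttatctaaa
Ugdh, chr5:65435940-65436000, strand -: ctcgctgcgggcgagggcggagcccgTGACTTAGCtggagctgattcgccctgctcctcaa
The core shown starts 125 bases before the gene start in Gclm, 47 in Mgst1, 112 in Gsta3 and 123 in Ugdh. The differences of these genes in pair 1 and pair 2 were 0.32 and 0.32 for Gclm, 0.23 and 0.27 for the microsomal transferase Mgst1, 0.14 and 0.24 for the transferase Gsta3 and 0.11 and 0.14 for Ugdh, which makes UDP-glucuronate. Gsta3 and Ugdh were chosen for their sequences after their values were seen.

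The proliferation list was lower in KO, mostly in pair 2. Of 55 listed genes 51 were measured, 34 were lower in both pairs and 1 was higher in both, beside 22.3% and 23% of all genes. The median was -0.08 in pair 1 and -0.64 in pair 2. No member passed the limma threshold, and 8 had an unadjusted p under 0.05, beside 3.63% of all genes. Of 30 mitosis genes 23 were lower in both pairs, with medians of -0.17 and -0.66, and of 21 replication genes 11 were, with medians of 0.00 and -0.53. Mki67, the marker of cycling cells, read 7.89 and 11.49 in WT and 7.32 and 11.03 in KO. Plk1, a mitotic kinase, read 8.15 and 11.23 in WT and 7.78 and 10.75 in KO. In both genes the numbers differed by about 3 log2 units or more and the genotypes by 0.57 or less. The fibroblast markers moved against this list in pair 2, with a median difference of 1.16 there and 0.08 in pair 1, and their part in the result was not tested.

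The cell cycle genes homology region, TTTGAA, a short element of promoters active late in the cell cycle, was looked for in the same way on both strands. It was found in 17 of 24 mitosis genes with a promoter in the table (70.8%), against 20.2% of all genes, 4 of 18 replication genes (22.2%) and 7 of 33 NRF2 pathway genes (21.2%). Of the 17 mitosis genes with the element 15 were lower in both pairs, and of the 7 without it 3 were, beside 22.3% of all genes. The difference between these counts was not tested. The mitosis genes too were listed from general knowledge, so their raised share can follow from that choice. The element is shown in capitals in 5 mitosis genes that were lower in both pairs.
Prc1, chr7:80294420-80294475, strand +: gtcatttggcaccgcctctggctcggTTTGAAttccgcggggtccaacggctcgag
Mki67, chr7:135716464-135716521, strand -: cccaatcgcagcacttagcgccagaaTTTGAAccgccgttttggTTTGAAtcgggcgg
Cdc20, chr4:118437344-118437387, strand -: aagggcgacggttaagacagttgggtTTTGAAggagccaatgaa
Ccnb2, chr9:70421690-70421747, strand -: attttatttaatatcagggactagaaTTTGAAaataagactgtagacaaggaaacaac
Ube2c, chr2:164769874-164769928, strand +: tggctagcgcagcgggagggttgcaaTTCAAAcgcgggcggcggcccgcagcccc
The first element starts 24 bases before the gene start in Prc1, 110 in Mki67, which holds a further copy, 12 in Cdc20, 161 in Ccnb2 and 23 in Ube2c, where it is on the opposite strand. Prc1 differed by -0.60 and -0.68 and Mki67 by -0.57 and -0.47. Cdc20, the activator of the anaphase promoting complex, differed by -0.29 and -0.64, the cyclin gene Ccnb2 by -0.26 and -0.62 and the ubiquitin-conjugating enzyme gene Ube2c by -0.21 and -0.53. The last 3 were chosen for their sequences after their values were seen.

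SASP factors were mostly higher in KO in pair 2. Of 65 listed factors 61 were measured, 33 were higher in both pairs and 4 lower in both, beside 23% and 22.3% of all genes. The median was 0.07 in pair 1 and 0.34 in pair 2. No member passed the limma threshold over all genes, and 12 had an unadjusted p under 0.05, beside 3.63% of all genes. Of 16 chemokines 9 were higher in both, with medians of 0.38 and 0.46, which makes them the role of this list with the largest difference in pair 1. Beside Cxcl10, Ccl5 and Mmp13, the eosinophil chemokine Ccl11 read 7.30 and 6.62 in WT and 8.09 and 7.56 in KO, higher by 0.79 and 0.95. Il1a, the interleukin 1 alpha gene, was dim, at 5.13 and 5.09 in WT and 4.86 and 4.75 in KO. Of 22 interleukins and growth factors 10 were higher in both, of 12 proteases and inhibitors 7, and of 11 receptors and IGF binding proteins 7. Many SASP factors are also made by fibroblasts, whose markers had the differences given above, and their part in the result was not tested.

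The inhibitors of cyclin-dependent kinases, the genes that halt the cycle in senescent cells, gave a mixed picture. Cdkn2a, which encodes p16 and p19, differed by 0.11 and 0.52, Cdkn2b by 0.20 and 0.43, Cdkn1a by 0.06 and 0.22 and Cdkn1c by 0.17 and 0.68. Those 4 were higher in both pairs. Cdkn1b differed by 0.07 and -0.50, Cdkn2c by 0.03 and -0.66 and Cdkn2d by 0.18 and -0.43, so these 3 changed sign between the pairs. Targets of p53 were more uniform. Of 21 measured 16 were higher in both pairs and 0 lower in both, beside 23% and 22.3% of all genes, with medians of 0.13 and 0.31. Sesn2, a stress-induced regulator of TORC1, read 8.94 and 8.39 in WT and 9.25 and 8.96 in KO. Dram1, a lysosomal membrane protein linked to autophagy, was higher by 0.28 and 0.62, Trp53inp1 by 0.38 and 0.22 and the death gene Bbc3 by 0.24 and 0.40. No p53 target passed the limma threshold.

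The pigmentation list was lower in KO in pair 2 and nearly level in pair 1. Of 32 measured members 18 were lower in both pairs and 1 was higher in both, beside 22.3% and 23% of all genes, with medians of -0.03 and -0.35. Mitf, the master transcription factor of the lineage, read 10.92 and 11.89 in WT and 10.58 and 11.61 in KO, lower by 0.33 and 0.28. The melanosomal transporter gene Slc45a2 differed by -0.28 and -0.56, Oca2 by -0.21 and -0.44 and the melanocortin receptor gene Mc1r by -0.24 and -0.92. Of the 10 melanocyte markers 8 were lower in both pairs and 0 higher in both. The fibroblast markers, at 0.08 in pair 1 and 1.16 in pair 2, moved against this list too, and their part in it was not tested.

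The autophagy machinery had small differences, mostly above 0. Of 41 listed genes 39 were measured, 21 were higher in both pairs and 7 lower in both, against 23% and 22.3% of all genes, with medians of 0.08 and 0.04. Cargo receptors were higher in both pairs in 5 of 6 cases and LC3 and GABARAP genes in 4 of 5. The conjugation system, to which Atg7 belongs, had 3 of 10 higher and 3 of 10 lower. The lysosome list had 14 of 34 higher in both pairs and 2 lower in both, with medians of 0.07 and 0.06. Its proton pump gene Atp6v0d2 differed by -0.28 and -0.64 and its protease gene Ctsh by 0.20 and 0.81. The subunits of the AP-1 to AP-3 clathrin adaptors, the family of Ap1s2, were split, 7 of 21 higher and 7 lower in both pairs.

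**Figure D5:**
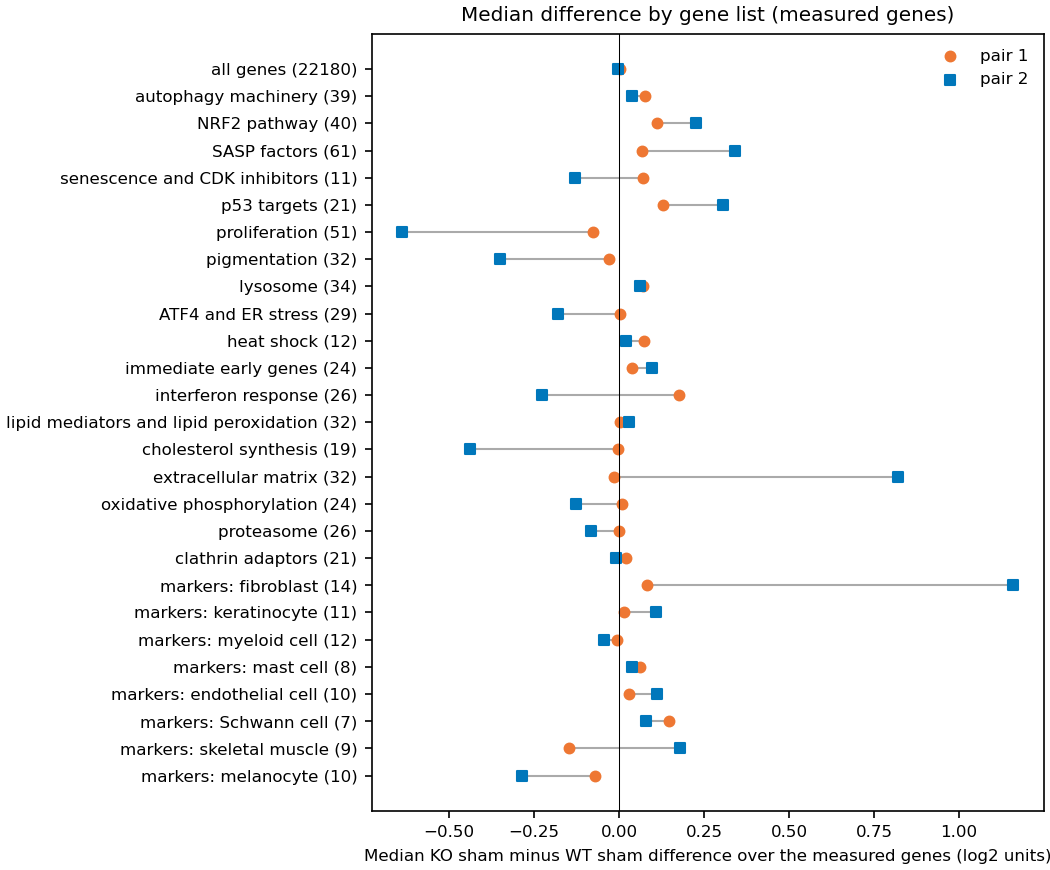
Median difference of each gene list in pair 1 and pair 2 (horizontal axis, log2 units), with the number of measured genes in brackets. The medians of all lists lie within 0.2 of 0 in pair 1. Fibroblast markers (1.16), extracellular matrix (0.82) and proliferation (-0.64) are widest in pair 2.

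Stress and metabolic lists differed little in pair 1. Their counts compare with 23% of all genes higher and 22.3% lower in both pairs. The unfolded protein response had 0 of 14 genes higher and 7 lower in both pairs, with medians of -0.02 and -0.30. Cholesterol synthesis had 0 of 19 higher and 10 lower, with medians of 0.00 and -0.44. Oxidative phosphorylation had 1 of 24 higher and 9 lower, and the proteasome 5 of 26 higher and 11 lower, with medians between -0.13 and 0.01 in either pair. Immediate early genes had 10 of 24 higher and 5 lower, and heat shock genes 5 of 12 higher and 3 lower. The inducible chaperone gene Hspa1b was higher by 0.33 and 0.22.

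Interferon-stimulated genes had a median of 0.17 in pair 1 and -0.23 in pair 2, so the pairs disagreed in sign. Of 26 genes 4 were higher and 2 lower in both pairs, beside 23% and 22.3% of all genes. Ifit1, which binds viral RNA, was higher by 1.14 and 0.42 and Oas2 by 0.29 and 0.30. Mx2 differed by -0.33 and -0.72 and Bst2, tetherin, by -0.25 and -0.85. Cxcl10, which interferon also induces, was thus higher in both pairs while most of the list was not. Among 32 genes of lipid mediators and lipid peroxidation 10 were higher and 7 lower in both pairs. The prostaglandin E synthase gene Ptges read 11.29 and 9.73 in WT and 11.56 and 10.97 in KO, higher by 0.27 and 1.25, and the leukotriene enzyme gene Alox5 differed by -0.22 and -0.36, with a second, dimmer probe set at 0.21 and -0.23. The aldo-keto reductase gene Akr1b8 was higher by 0.29 and 0.53. Of 9 genes of lipid peroxide defence 6 were higher and 0 lower in both pairs.

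Matrix and fibroblast genes separated the pairs most. The extracellular matrix list had medians of -0.02 in pair 1 and 0.82 in pair 2. Of its 32 genes 11 were higher and 4 lower in both, beside 23% and 22.3% of all genes. Of 14 fibroblast markers 9 were higher and 1 lower in both. Lum, a matrix proteoglycan, was higher by 0.71 and 0.74, whereas Dcn, another, was higher by 0.21 and 1.14, Twist2 by 0.30 and 1.38 and the collagen gene Col6a2 by 0.30 and 1.21. Elastin, Eln, was higher by 0.55 and 0.43, and Col14a1 differed by -0.28 and -1.16. Of the 68 genes higher by at least 0.5 in both pairs 1 was in the matrix or fibroblast lists. These lists hold only 32 and 14 of the 22180 genes, and the part of fibroblasts in the 68 was not tested. The lists of other cell types had medians between -0.15 and 0.18. Of 12 myeloid markers 3 were higher and 4 lower in both pairs, Lyz2, the lysozyme of myeloid cells, being higher by 0.62 and 1.62 and Cd68 by 0.20 and 0.39. In the Schwann cell list 3 of 7 genes were higher and 0 lower in both pairs, Cdh19 being higher by 0.80 and 0.29. In the endothelial list 5 of 10 were higher and 2 lower in both. There Cdh5 was higher by 0.35 and 0.23 and Vwf differed by -0.31 and -0.68. In the keratinocyte list 5 of 11 were higher and 2 lower in both, Krt10 being higher by 0.30 and 0.29. Of 9 muscle markers Ckm, higher by 0.34 and 0.30, was the only one above 0 in pair 1, where 7 were below 0. In pair 2, in contrast, 8 of the 9 were above 0. A second probe set of Ckm gave -0.09 in both pairs.

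The widest disagreements between the pairs ran in both directions. Fabp4, a fatty acid binding protein of adipocytes and macrophages, read 10.98 on WT sham 1, 6.13 on WT sham 2, 11.07 on KO sham 1 and 9.76 on KO sham 2. It thus differed by 0.09 in pair 1 and 3.63 in pair 2, with WT sham 2 alone low. Il33 differed by 0.16 and 2.57, Dgkk by -0.07 and 2.31, the mast cell protease gene Mcpt8 by -0.11 and 2.29 and Prl3a1 by -0.75 and 1.88. In the opposite direction, the Y-linked genes Eif2s3y, Uty and Kdm5d differed by 2.64, 2.36 and 1.91 in pair 1 and by -0.26, -0.37 and -0.17 in pair 2. Oas1g differed by 0.52 and -1.47 and the histone gene H2bc18 by 0.71 and -1.13.

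After UVA-1 the same genotypes gave similar values for the leading higher genes and less so for the lower ones. These arrays may come from the same cultures and are no independent support. All 12 leading higher genes were higher in both UVA pairs, beside 19% of all genes, with a median difference of 1.18 against 1.33 after sham. Adh7 differed by 1.68 and 1.07, Nqo1 by 0.77 and 1.20 and Cxcl10 by 1.89 and 1.78 after UVA. Slitrk6, in contrast, differed by 0.19 in pair 1 and 2.06 in pair 2. Of the 12 leading lower genes 9 were lower in both UVA pairs, beside 26.1% of all genes, with a median of -0.49 against -0.66 after sham. Moxd1 differed by -0.92 and -0.97, whereas Nrip3 differed by -0.16 and -0.99 and Prc1 by 0.03 and -0.56. Of the 68 genes higher by at least 0.5 in both sham pairs 58 were higher in both UVA pairs. The NRF2 pathway list had medians of 0.11 and 0.11 after UVA, and 19 of its 40 measured genes were higher in all 4 pairs, beside 7.65% of all genes. The proliferation list had medians of -0.03 and -0.52, and 21 of 51 were lower in all 4 pairs, beside 7.78% of all genes. A limma test of whether the genotype difference itself changed with UVA passed 0 of 22180 genes at an adjusted p of 0.05. Of the same 22180 genes 766 had an unadjusted p under 0.05.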

How the data were processed

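Per the submitters' processing notes, the authors summarised the arrays by RMA (robust multi-array averaging) in Affymetrix Expression Console 1.3.1.187. The deposited intensity values are whole numbers on a linear scale from 7 to 22585, and log2 was taken here. Neither a genome build nor an annotation version is given in the sources used here. Of 41345 probe sets 23521 had 1 gene symbol, 1814 several and 16010 none in the platform table. Those with 1 symbol were kept, and for 1082 genes with several probe sets the one with the highest mean over all 8 arrays was used, which gave 22180 genes (21994 found by Entrez identifier in the RefSeq table). RMA equalises the arrays, so a shift of most transcripts would not be seen.

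The test was limma 3.58.1 (R 4.3.3), two-sided, on the 4 sham arrays with genotype and number as terms, eBayes with a trend and Benjamini-Hochberg adjustment over all genes, with a threshold of 0.05. In this fit the residual is exactly the disagreement between the pairs, whereas a fit over all 8 arrays also counts the scatter between treatments within a genotype and number as error. Standard errors are from this fit, except those of the 5 genes that passed with the limit of 6 on the mean log2 level, which are from that fit. All are moderated by eBayes and draw on the variance of the other genes as well as on the 2 pairs. Arrays of 1 number were treated as pairs, since the labels share them across groups and the deviations of same-numbered sham arrays from their group means correlated at r = 0.81. With only 2 numbers this is a hint. The fit was tested on simulated data in which every gene had the same noise. The noise of these arrays differs between genes, so that test does not show how many real differences the fit would find. The number of arrays limits the precision.

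The comparison, the 25 gene lists (650 genes, 596 measured, drawn up from general knowledge) and the rules were chosen with earlier results of these data known, and no list was tested. Genes were named by rule: among genes with a mean log2 level of at least 6 and the same sign in both pairs, the 12 highest and 12 lowest by the smaller of both differences; up to 4 members per list and direction by that size; Atg7, Sqstm1, Nfe2l2, Keap1 and the CDK inhibitors; and the 5 genes in each direction where the pairs disagreed most. List members with a smaller difference under 0.2 were left unnamed, a limit chosen after the values were seen, as were the melanocyte and fibroblast marker genes and the sex-linked genes given as checks. Alternatives were fits without the block, over all 8 arrays, without a trend and without each array, the level limit, the mean of all probe sets of a gene and centring of the arrays. The fit of the interaction blocked by genotype and number together was added after the data were seen.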

Additional observations from a re-analysis of the deposited data

Results flagged for a closer look

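In 4 of the named genes both sham pairs lay on one side of 0 and both UVA pairs on the other. They were picked by that change of sign. The unadjusted p-values below come from the same values and are no support for a change. The share of all genes with such a change of sign is not given here. The values are the UVA difference minus the sham difference, in log2 units, from a limma fit over the 8 arrays blocked by genotype and number together, and each had an adjusted p of 1. Olfr566 differed by -0.58 and -0.64 after sham and by 0.08 and 0.24 after UVA, a change of 0.76 (limma unadjusted p = 0.00186) at a mean level of only 6.04. Bbc3 differed by 0.24 and 0.40 after sham and by -0.08 and -0.28 after UVA, a change of -0.50 (limma unadjusted p = 0.0153). Krt10 differed by 0.30 and 0.29 and then by -0.16 and -0.07, a change of -0.41 (limma unadjusted p = 0.0177). Ckm differed by 0.34 and 0.30 and then by -0.16 and -0.02, a change of -0.40 (limma unadjusted p = 0.0436), and its second probe set gave -0.09 in both sham pairs.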

How the results depend on the processing

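The count of genes past the adjusted threshold was 0 in all limma fits but one. It was 5 with the limit of 6 on the mean level, where the estimated prior degrees of freedom were 6.73 against 2.71. Adh7 was then at 1.60, Cyp1b1 at 1.52, Cxcl10 at 1.41, Nqo1 at 1.28 and Ap1s2 at 1.15. The count at an unadjusted p under 0.05 was 806 with the replicate block on the 4 sham arrays, 330 on the same arrays without the block, 1230 over all 8 arrays with it and 446 over all 8 without it, and the pairing changed no adjusted call in these fits. It was 954 with the level limit, 783 with the mean of all probe sets and 764 without a trend. Leaving out 1 sham array at a time, fitted over the other 7 arrays with the block and with the lone array assumed to vary like the others, gave 637 to 1794, with 1722 without WT sham 1 and 1794 without KO sham 1, and 0 past the adjusted threshold each time. With both arrays of a number left out, no residual degree of freedom remains, and the other pair's difference stands without a test. The count of genes with the same sign in both pairs stayed between 7717 and 10577, and that of genes at least 0.5 apart in the same direction was 84, 71 with the level limit, 81 with the mean of probe sets and 83 after centring. Of 75 named genes 2 changed sign in these limma fits. Keap1 was at 0.061 with the mean of its probe sets, and leaving out single arrays or a pair gave -0.19 to 0.11, above 0 without KO sham 2. Cdkn2d lay between -0.43 and 0.18 in the same way, at 0.12 without WT sham 2 and 0.04 without KO sham 2. The list medians rest on both pairs unequally, and 8 of 25 moved by more than the spread between the pairs when only pair 1 was used and 5 when only pair 2 was used. That spread, the SD of the 2 pair medians, grows with their gap, so a list whose pairs differ widely can stay unmoved. The fibroblast markers had a median of 0.61 over both pairs and 0.08 in pair 1 alone. The extracellular matrix list had 0.39 and -0.02 and the proliferation list -0.37 and -0.08, and none of these counted as moved. The causes of these differences were not tested. The deposited whole numbers are coarse for dim genes.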
